A study of Homo sapiens with 4 samples.

Results

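The genes described here are 10 genes that write DNA methylation, or write or read methylation of lysine 9 of histone H3 (H3K9), in human MDA-MB231 breast cancer cells. They are the DNA methyltransferases DNMT1, DNMT3A and DNMT3B, the hemimethylation reader UHRF1, the HP1 proteins CBX1, CBX3 and CBX5, and the H3K9 methyltransferases SUV39H1, EHMT2 and SETDB1. All probe sets of the array that the platform's gene table lists for exactly one of these genes were taken, whatever their values, which gave 13 of 22277 probe sets and 9 of the 10 genes. UHRF1 is not analysed here, as no probe set is listed for it alone. MDA-MB231 cells carrying a control shRNA or PIAS1 shRNA2, which targets the SUMO ligase PIAS1, were kept for 30 h in one of a pair of media, DMEM with 10% FBS or SCM, which is a serum-free stem cell medium with growth factors. The study asked what part PIAS1 has in breast tumorigenesis, and the experiment described here looked at PIAS1 knockdown in each medium. Every one of the 4 conditions has 1 Affymetrix expression array. The PIAS1 shRNA2 cells are a single stable line made with 1 of the study's PIAS1 shRNAs, and all 4 arrays come from the same parental line.

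In mammalian cells, DNMT1 copies methylation marks onto the new strand behind the replication fork, and UHRF1 brings it to hemimethylated sites. DNMT3A and DNMT3B can set marks where there were none. SUV39H1, EHMT2 (also called G9a) and SETDB1 methylate H3K9, mostly in pericentromeric heterochromatin, at silenced genes and at retroelements, in that order. The HP1 proteins bind methylated H3K9 through a chromodomain and help to keep chromatin compact. CBX5 encodes HP1 alpha, CBX1 HP1 beta and CBX3 HP1 gamma.

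With PIAS1 shRNA2, PIAS1 signal was below that of control shRNA cells on each of its 3 probe sets in both media, which checks the shRNA labels. On probe set 217862_at the PIAS1 signal was 1383 and 512 in DMEM and 1814 and 671 in SCM, in the order control shRNA and PIAS1 shRNA2. PIAS1 signal thus stood at 37.0% of control in both media on that probe set, and at 23.8% and 31.5% on 217864_s_at. On 217863_at it was at most 27.2% of control in DMEM, the knockdown signal of 158 being under the floor, and 77.9% in SCM. Genes known from MDA-MB231 cells, VIM and CD44 among them, lay above background on every array in 8 of 8 cases. So did 5 of 8 epithelial and luminal genes (ESR1, GATA3, ERBB3, EPCAM and KRT19). CDH1, PGR and FOXA1 were below background on every array. In DMEM, ESR1 was only just over the floor of 186, at 216 in control shRNA cells and 206 in PIAS1 shRNA2 cells. The paper reports that Q-PCR did not detect ESR1 in control shRNA cells, so these DMEM signals do not show that it was expressed. Across the 8 luminal genes the summed signal was 11450 and 9610 in DMEM and 24815 and 16373 in SCM, in the same order. Most of the SCM sum was KRT19, at 4181 and 3680 in DMEM and 18700 and 12434 in SCM. ESR1, ERBB3 and EPCAM signals were also higher in SCM in both lines. GATA3 went the other way, at 6040 and 4765 in DMEM and 3103 and 1718 in SCM. On the ESR1 probe set read here, the SCM signals were 706 and 357, so lower with PIAS1 shRNA2. The paper lists ESR1 among the genes induced by the knockdown, and other ESR1 probe sets are not described here. Its Q-PCR statement on control shRNA cells names no medium, so the SCM signals do not show ESR1 expression either. Of 5 endothelial genes CDH5, VWF and TEK were below background on every array, and the summed signal of 529 and 444 in DMEM and 2519 and 3731 in SCM was mostly that of PECAM1, at 339 and 219 in DMEM and 2188 and 3297 in SCM. Of 4 leukocyte genes measured, CD14 and LCP1 were above background on every array, CD3D on 3 arrays and PTPRC, the pan-leukocyte gene, on 0. Their sums were 1211 and 985 in DMEM and 2037 and 1907 in SCM. Of 6 fibroblast genes, COL1A1, COL1A2 and PDGFRB were above background on every array, and the sums were 2028 and 1649 in DMEM and 3768 and 3872 in SCM. Of 4 basal and myoepithelial genes measured, only ACTA2 was above background on every array. The part of these genes in the results below was not tested. Array medians lay between 569 and 605. The ACTB signal ratio of 3' to 5' probe sets, a sign of RNA quality, lay between 0.946 and 1.11, with both higher values in SCM. The same ratio for GAPDH did not follow the medium, at 0.860 and 0.858 in DMEM and 0.834 and 0.879 in SCM, control shRNA first.

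Values are MAS5 signals, array intensities on a linear scale. They compare a probe set between arrays, never one gene with another. Signals under 186 were treated as background and raised to that floor before a ratio was taken. The floor came from genes of other tissues, whose 75th percentile was itself higher in SCM (186 and 178) than in DMEM (139 and 155). Of the 13 probe sets, 12 were above the floor on all 4 arrays and DNMT3A was above it on 1. With 1 array per condition, a ratio between conditions has no replicate check and no p-value. A separate additive limma fit over the 4 arrays, with shRNA and medium as terms and 1 residual degree of freedom, asked for effects alike in both media or in both lines. In that fit the other line stands in for a replicate of the medium effect, and its adjusted p-values cover only effects alike in that way. The variance behind them was mostly borrowed from other probe sets, with 13.4 prior degrees of freedom beside the 1 residual. The p-values thus measure the agreement of the lines only in small part.

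Promoter windows of 3 members are shown, those of DNMT1 and SUV39H1 because both genes were far lower in SCM, and that of CBX3 because it holds the same kind of E2F-type letters as that of DNMT1. RefSeq (GRCh38.p14) windows from 250 bases before to 50 after each start were searched on both strands for the E2F-type letters TTTCCCGC, TTTGGCGC and TTTCGCGC. E2F factors act at many genes of S phase. The letters were found at 3 of the 10 member genes (DNMT1, CBX3 and UHRF1), at 3.30% of all 27305 genes with a window, and at 14 of 24 genes of the S phase list described below. Over windows, they stood in 4 of 21 for the members and in 2.74% of 35116 overall. The windows below run 5' to 3' along each gene's own strand and end 10 bases into the transcript, with the matched letters in capitals. They stand for DNMT1 at chr19:10194944-10195203 on the minus strand, where TTTCGCGC lies on the opposite strand at positions -2 to 6 from the start, for CBX3 at chr7:26201193-26201452 on the plus strand, with TTTGGCGC at positions -4 to 4, and for SUV39H1 at chrX:48696484-48696743 on the plus strand, where none of the letters was found.
DNMT1: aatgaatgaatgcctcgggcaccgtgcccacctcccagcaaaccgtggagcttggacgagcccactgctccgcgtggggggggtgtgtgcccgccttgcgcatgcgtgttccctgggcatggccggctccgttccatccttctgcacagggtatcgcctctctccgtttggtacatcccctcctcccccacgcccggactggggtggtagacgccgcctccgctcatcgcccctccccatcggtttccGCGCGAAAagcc
CBX3: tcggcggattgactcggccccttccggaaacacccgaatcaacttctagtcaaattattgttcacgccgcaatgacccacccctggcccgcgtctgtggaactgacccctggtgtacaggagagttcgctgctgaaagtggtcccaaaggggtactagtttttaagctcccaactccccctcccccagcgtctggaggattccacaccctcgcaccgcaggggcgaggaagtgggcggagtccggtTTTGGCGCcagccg
SUV39H1: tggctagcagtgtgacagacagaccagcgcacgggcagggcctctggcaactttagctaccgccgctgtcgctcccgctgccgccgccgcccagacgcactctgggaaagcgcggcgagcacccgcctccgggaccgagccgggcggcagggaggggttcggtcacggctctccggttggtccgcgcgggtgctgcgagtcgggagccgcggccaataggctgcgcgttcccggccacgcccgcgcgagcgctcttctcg
The searched windows held 30 CpG for DNMT1, 19 for CBX3 and 42 for SUV39H1, against a median of 14 over all windows and 25 over those of the members. SUV39H1 has another annotated start, with 7 CpG in its window and none of the letters. A match of letters is a description of the sequence and does not show that a factor binds there, and no match says only that these letters are not in the window.

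In SCM, DNMT1 stood at 21.6% of its DMEM signal in control shRNA cells and at 24.2% in PIAS1 shRNA2 cells. SUV39H1 and CBX5 were also at least 2-fold lower in SCM in both lines, the latter on one of its probe sets. CBX1 and the brighter CBX3 probe set were lower by less than 2-fold, and EHMT2 and SETDB1 had log2 ratios between -0.29 and 0.17 on their brighter probe sets. In the additive fit 7 of the 12 member probe sets fell in SCM (DNMT1, DNMT3B, CBX1, one of CBX3, both of CBX5, and SUV39H1) and 0 rose, where 23.6% of the 13574 probe sets fitted fell and 22.6% rose. In bulk RNA, fewer cells that express a gene and less RNA per cell cannot be told apart.

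By ratio alone, 3 member probe sets were at least 2-fold lower in SCM in control shRNA cells and 4 in PIAS1 shRNA2 cells, of 13, where the share over all 19070 probe sets of one gene was 7.58% and 7.72%. The same 3, DNMT1, CBX5 209715_at and SUV39H1, were at least 2-fold lower in both lines, as were 991 of all probe sets. At least 2-fold higher in SCM was 1 member probe set in each line, the dim SETDB1 214197_s_at in control shRNA cells and DNMT3A in PIAS1 shRNA2 cells, beside 8.08% and 7.9% overall. Among probe sets above the floor in both media, the median log2 ratio of the members was -0.54 in control shRNA cells and -0.58 in PIAS1 shRNA2 cells, against -0.01 and -0.04 for all such probe sets. Of the 12 members above the floor, 11 in control shRNA cells and 10 in PIAS1 shRNA2 cells still lay within the range that holds the middle 95% of all probe sets. The medium ratios of the 2 lines use separate arrays.

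**Figure D1:**
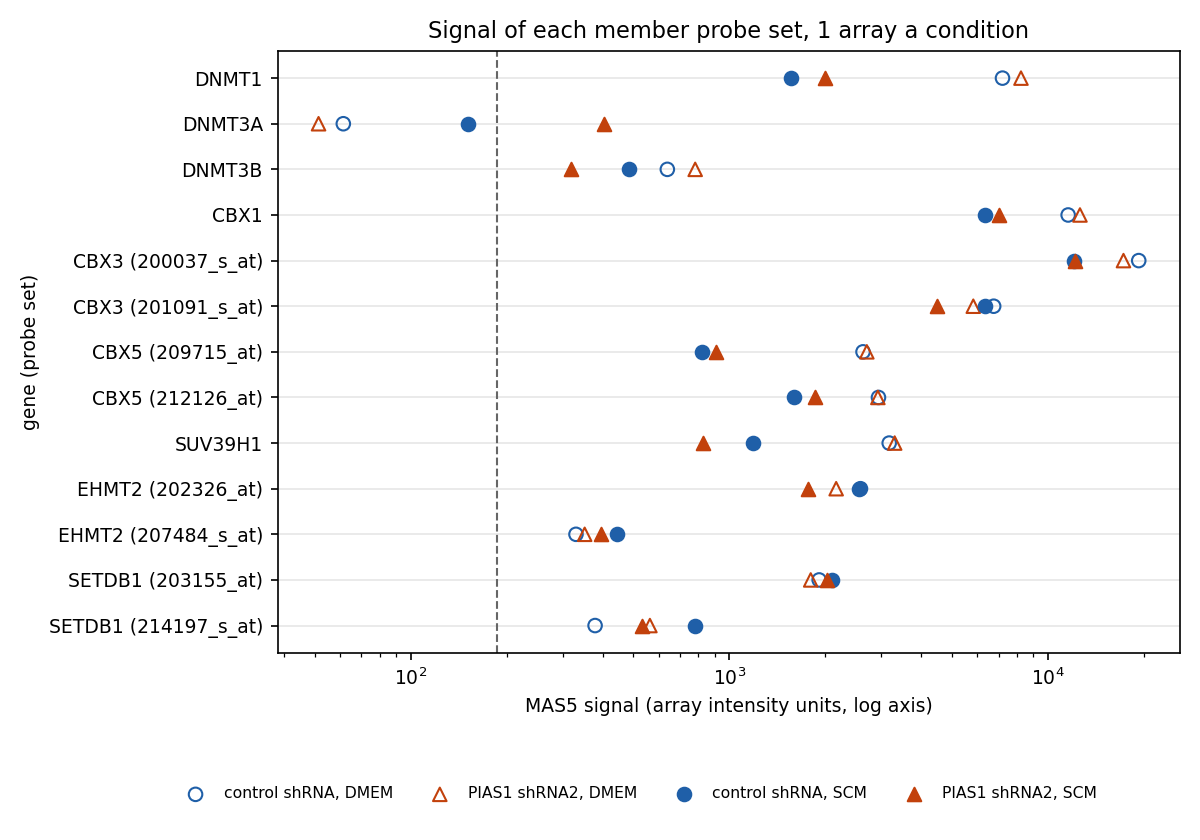
Signals of the 13 member probe sets on each of the 4 arrays (log axis, MAS5 intensity units), with open symbols for DMEM, filled for SCM, circles for control shRNA, triangles for PIAS1 shRNA2 and a dashed line at the floor of 186. For DNMT1 both filled symbols (1558 and 1991) sit far left of both open ones (7199 and 8227), while the 4 symbols of SETDB1 203155_at lie between 1800 and 2097.

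Among the DNA methyltransferases, DNMT1, the maintenance enzyme, had the widest range of the members once signals were raised to the floor. Its signal on 201697_s_at was 7199 in control shRNA cells and 8227 in PIAS1 shRNA2 cells in DMEM, and 1558 and 1991 in SCM. Both SCM arrays were thus far below both DMEM arrays, by 4.62-fold in control shRNA cells and 4.13-fold in PIAS1 shRNA2 cells. The fitted medium effect on DNMT1 was -2.13 on the log2 scale (SE 0.154), with an adjusted p of 6.60e-08 by limma. It was 0.00348 when the variance was not allowed to follow the signal.

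DNMT3B, a de novo enzyme, was dimmer and moved less evenly. Its signal on 220668_s_at was 639 and 781 in DMEM and 485 and 319 in SCM, for control shRNA and PIAS1 shRNA2 cells in that order. It was lower in SCM in both lines, by a log2 ratio of -0.40 in control shRNA cells and of -1.29 (2.45-fold) in PIAS1 shRNA2 cells. With the floor at the 95th percentile of background genes or at the array median, the latter became -0.62 or -0.37, and DNMT3B was no longer 2-fold lower. The fit gave DNMT3B a medium effect of -0.84 (SE 0.303, adjusted p = 0.0332 by limma), which missed the threshold at 0.0583 when the variance was not allowed to follow the signal.

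DNMT3A, the other de novo enzyme, was near background. Its deposited signal on 218457_s_at was 61.4 and 51.4 in DMEM and 152 and 404 in SCM, in the same order. Of the 4 signals only that of PIAS1 shRNA2 cells in SCM was above the floor, and it still lay below the 95th percentile that genes of other tissues had on its own array, 492. Against the floor it was at least 2.17-fold above the other conditions, and the deposited signals gave 7.88-fold over DMEM in the same line. DNMT3A could not be included in the fit, which needed a signal above the floor on 2 arrays. Its call as higher in SCM ended when the floor was set at that percentile or at the array median.

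The HP1 genes were lower in SCM to differing degrees, and their probe sets differed. CBX5 on 209715_at had signals of 2627 and 2700 in DMEM and 819 and 910 in SCM, control shRNA first. On 212126_at, its brighter probe set, they were 2937 and 2925 in DMEM and 1601 and 1854 in SCM. On both, the lines nearly coincided within a medium, and the SCM arrays lay below the DMEM arrays. The fitted medium effect was -1.63 (SE 0.213, adjusted p = 2.08e-05) on 209715_at and -0.77 (SE 0.185, adjusted p = 0.00334) on 212126_at by limma, and the difference between the probe sets was not tested.

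CBX1, encoding HP1 beta, had signals of 11569 and 12600 in DMEM and 6353 and 7006 in SCM. Its log2 ratios of -0.86 in control shRNA cells and -0.85 in PIAS1 shRNA2 cells were nearly the same, and the fitted effect was -0.86 (SE 0.120, adjusted p = 3.85e-05 by limma). CBX3, encoding HP1 gamma, had signals of 19269 and 17255 in DMEM and 12042 and 12160 in SCM on 200037_s_at. There both SCM arrays, 1 from each line, were below both DMEM arrays. The fitted effect was -0.59 (SE 0.111, adjusted p = 5.18e-04 by limma). On its dimmer probe set 201091_s_at the signals were 6754 and 5829 in DMEM and 6359 and 4492 in SCM, the media overlapped, and CBX3 did not pass (-0.23, adjusted p = 0.191).

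Of the H3K9 methyltransferases, SUV39H1 was the member that fell. Its signal on 218619_s_at was 3174 and 3302 in DMEM and 1182 and 825 in SCM, so that both SCM arrays were below both DMEM arrays. The log2 ratio of SUV39H1 was -1.42 in control shRNA cells and -2.00 in PIAS1 shRNA2 cells, and the fitted effect was -1.71 (SE 0.213, adjusted p = 1.28e-05 by limma). EHMT2 on 202326_at had signals of 2579 and 2164 in DMEM and 2561 and 1770 in SCM. The media overlapped, and the 95% interval of its medium effect ran from -0.55 to 0.25. SETDB1 on 203155_at had signals of 1913 and 1800 in DMEM and 2097 and 2019 in SCM. Its SCM arrays were slightly the higher, with an interval from -0.26 to 0.56, so a change of the size of that of DNMT1 or SUV39H1 lies outside both intervals.

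The remaining probe sets of these methyltransferases were dim. EHMT2 on 207484_s_at ranged from 330 to 445 over the 4 arrays, with a medium effect of 0.30 (adjusted p = 0.429 by limma). SETDB1 on 214197_s_at read 379 and 563 in DMEM and 777 and 531 in SCM. Its 2-fold ratio in control shRNA cells (log2 1.04) had no counterpart in PIAS1 shRNA2 cells (-0.08), and the call ended under either other scaling of the arrays.

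Neither dropping the variance trend nor quantile normalization ended the medium calls of DNMT1, CBX1, CBX3 200037_s_at, CBX5 or SUV39H1. With no trend, CBX3 200037_s_at passed only narrowly, at an adjusted p of 0.0473 by limma. Without the filter on low signals, 0 of the 19070 probe sets passed for the medium, the smallest adjusted p being 0.114, although 5026 had an unadjusted p below the threshold of 0.05, and 0 passed in fits that left out 1 array and, to keep a residual degree of freedom, the shRNA term too.

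**Figure D2:**
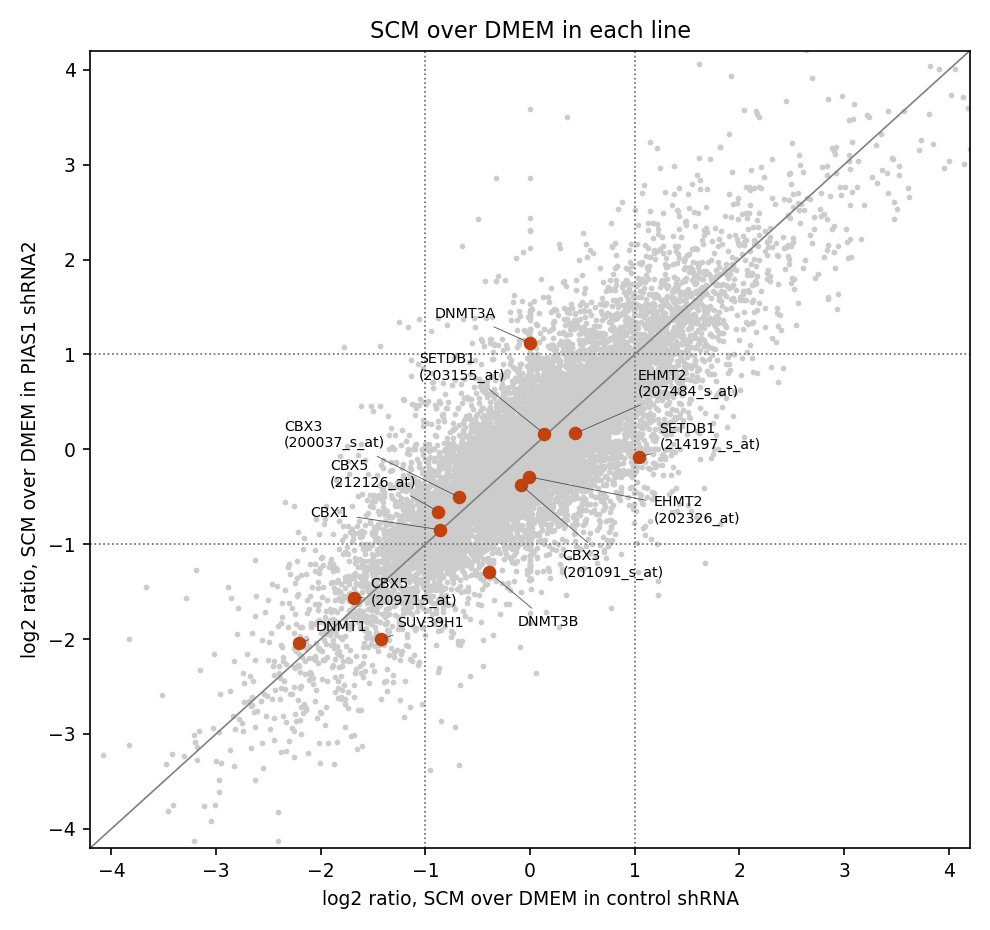
Log2 ratio of SCM over DMEM in control shRNA cells (x axis) and in PIAS1 shRNA2 cells (y axis), for the member probe sets (orange) and all probe sets of one gene (grey; points beyond the axes are not drawn), with dotted lines at 2-fold. DNMT1 (-2.21 and -2.05), SUV39H1 (-1.42 and -2.00) and CBX5 209715_at (-1.68 and -1.57) lie in the lower left corner, and SETDB1 203155_at (0.13 and 0.17) lies near the origin.

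Genes that work with the members were described by lists, each gene read from its brightest probe set. Over all 11963 genes, 980 were at least 2-fold higher and 980 lower in SCM in control shRNA cells, 1006 and 961 in PIAS1 shRNA2 cells, the median log2 ratio was 0 in both, and 2067 rose and 2171 fell among 8915 fitted. Of the partners and readers of DNA methylation, 16 of 21 were measured, with medians of -0.39 in control shRNA and -0.41 in PIAS1 shRNA2 cells, and 6 of 14 fitted fell while 0 rose. HELLS, a chromatin remodeler needed for DNA methylation, had log2 ratios of -1.76 and -2.68, the latter a bound, and MBD3, a subunit of the NuRD complex, of -1.38 and -0.75. GATAD2A, also of NuRD, had -1.12 and -0.91, and TRDMT1, a tRNA methyltransferase of the DNMT family, -0.73 and -1.16. All of these passed in the fit (adjusted p from 3.46e-05 to 0.0130 by limma).

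Of the partners of H3K9 methylation and HP1, 23 of 24 were measured, with medians of -0.36 and -0.31, and 9 of 22 fitted fell while 2 rose. Those with the largest ratios were histone chaperones of replication: ASF1B at -2.25 in control shRNA cells and -2.79 in PIAS1 shRNA2 cells, and the CAF-1 subunits CHAF1A at -1.84 and -2.44 and CHAF1B at -2.15 and -2.23. TRIM28, the corepressor that recruits SETDB1, fell less, with log2 ratios of -1.11 and -1.13 (adjusted p = 1.84e-06 by limma). INCENP, a subunit of the chromosomal passenger complex, had log2 ratios of 0.15 and -1.72, the latter a bound, and did not pass (adjusted p = 0.106 by limma). In the list of H3K9 demethylases, of 10 measured and fitted, 3 rose and 1 fell. KDM3A had log2 ratios of 1.84 and 1.65 and KDM4B of 1.47 and 0.88. The only gene that fell was RIOX1 (-2.02 and -1.40), a ribosomal oxygenase, so no other gene of that list was called lower.

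Of the genes of S-adenosylmethionine turnover and the folate cycle, 13 of 14 were measured, with medians of -0.81 and -0.86, and 7 of 12 fitted fell while 2 rose. S-adenosylmethionine is the methyl donor of all these methyltransferases, and the list counts genes that use it as well as genes that supply it. MAT2A, which makes S-adenosylmethionine, had log2 ratios of -1.55 and -1.24, AMD1, which decarboxylates it, of -2.06 and -1.63, MTHFD1 of the folate cycle of -1.95 and -1.71, and MTRR, which keeps methionine synthase active, of -1.45 and -1.10. The DNA demethylation list had 2 of 10 fitted genes that rose and 4 that fell, of 12 measured. IDH2, a mitochondrial enzyme that makes the cofactor of the TET enzymes, had log2 ratios of 1.16 and 1.26, the stress gene GADD45B of -1.28 and -1.06 and the repair glycosylase SMUG1 of -0.73 and -1.09. TET3, which oxidises methylated cytosine, had 0.72 and -1.15 and was in part at background.

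In the Polycomb list, 6 of 17 fitted genes rose and 6 fell, of 19 measured. EZH2, the H3K27 methyltransferase, had log2 ratios of -2.46 and -2.63, while CBX7 (1.22 and 1.19), PHF1 (1.16 and 1.17) and PCGF2 (1.06 and 1.12) were higher in SCM. Of the histone deacetylases and acetyltransferases, 3 of 19 rose and 3 fell. HDAC5, a class II deacetylase, had log2 ratios of 3.30 and 3.20, and the acetyltransferase KAT2A of -1.49 and -0.90.

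Genes of S phase and DNA replication were lower in SCM, as were DNMT1, SUV39H1 and CBX5. Of 28 genes 27 were measured, 26 were at least 2-fold lower in SCM in each line, and 27 of 27 fell in the fit. Their median log2 ratio was -2.25 in control shRNA cells and -2.44 in PIAS1 shRNA2 cells. By the lower of a gene's ratios in the lines, the lowest were GINS2 (-4.23 and -3.47), CCNE2 (-3.46 and -3.81), MCM3 (-3.48 and -3.32) and GINS1 (-2.83 and -3.33), replication factors and a cyclin. In control shRNA cells 15 of the 27 had a ratio below that of DNMT1, 21 below that of CBX5 209715_at and 23 below that of SUV39H1. In PIAS1 shRNA2 cells these numbers were 21, 25 and 21. The brighter CBX5 probe set, 212126_at, lay above all 27 in both lines, as did CBX3, EHMT2 and SETDB1. The part of the S phase genes' shift in the lower DNMT1, SUV39H1 and CBX5 was not tested.

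**Figure D3:**
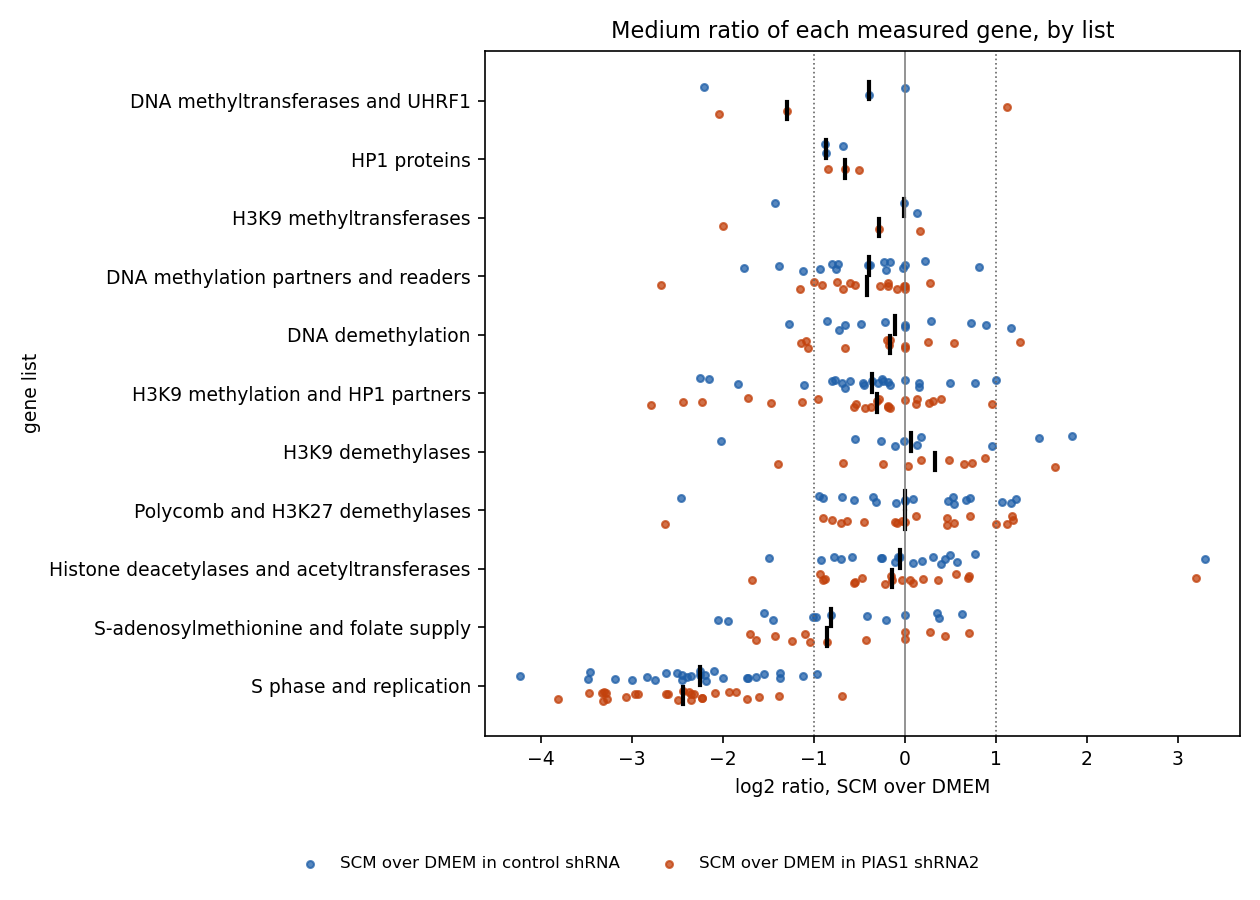
Log2 ratio of SCM over DMEM for each measured gene, by list, in control shRNA cells (blue) and PIAS1 shRNA2 cells (orange), with black bars at the list medians and dotted lines at 2-fold; vertical scatter within a row has no meaning. The S phase list sits to the left, with medians of -2.25 and -2.44, and the median of each other list of partners lies between -0.86 and 0.33.

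None of the 12 member probe sets above the floor on all arrays differed by 2-fold between the PIAS1 shRNA2 and control shRNA cells, in either medium. In DMEM 0 of 13 were at least 2-fold higher and 0 lower in PIAS1 shRNA2 cells, beside 1.12% and 0.708% of all probe sets. In SCM 1 was higher, DNMT3A by its bound of 2.17-fold, and 0 were lower, beside 1.48% and 1.19%. In the fit 0 of the 12 members rose and 0 fell with the knockdown, while 0.634% of all probe sets rose and 0.339% fell. At an unadjusted p below 0.05, 1 of 12 members passed, CBX3 201091_s_at, where 10.9% of all probe sets fitted did, and it no longer did with no variance trend. The knockdown ratios in DMEM and SCM use separate arrays, but each shares its arrays with the medium ratios above.

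DNMT1 was slightly higher in PIAS1 shRNA2 cells in both media, with log2 ratios of 0.19 in DMEM and 0.35 in SCM. Its fitted knockdown effect was 0.27 (SE 0.154, 95% interval from -0.06 to 0.60, adjusted p = 0.570 by limma). CBX1 was within 0.14 of control, and CBX5 within 0.21 on its probe sets. SETDB1 203155_at had ratios of -0.09 and -0.05. These are small beside the range from -0.71 to 0.77 in DMEM and from -0.82 to 0.86 in SCM that held the middle 95% of probe sets above the floor, and all 12 members lay inside it.

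The lowest log2 knockdown ratios in SCM were those of the dim DNMT3B (-0.60, and 0 with either higher floor) and SETDB1 214197_s_at (-0.55), and of EHMT2 202326_at (-0.53), SUV39H1 (-0.52) and CBX3 201091_s_at (-0.50). In DMEM the corresponding ratios were 0.29, 0.57, -0.25, 0.06 and -0.21. CBX3 201091_s_at and EHMT2 202326_at were thus lower in PIAS1 shRNA2 cells in both media. Their fitted effects were -0.36 (SE 0.138, adjusted p = 0.339) and -0.39 (SE 0.186, adjusted p = 0.467) by limma, neither past the threshold. The other CBX3 probe set, 200037_s_at, had ratios of -0.16 and 0.01, and the other EHMT2 probe set, 207484_s_at, of 0.09 and -0.17, so neither gene was lower on both probe sets in both media.

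In the partner lists, 0 of 131 genes passed the fit for the knockdown, where 68 rose and 33 fell among 8915 genes, and at an unadjusted p below 0.05 there were 8 higher and 13 lower (16.0% of the partner genes, beside 11.1% of all genes fitted). By ratio, TET3 was higher in PIAS1 shRNA2 cells in DMEM (log2 1.15, a bound) and lower in SCM (-0.72, also a bound). In SCM the deacetylases HDAC7 (-1.54, a bound) and HDAC11 (-1.17, a bound), INCENP (-1.18, a bound) and RRM2 (-1.23), the small subunit of ribonucleotide reductase, were lower in PIAS1 shRNA2 cells. In DMEM the ratios of HDAC7, HDAC11, INCENP and RRM2 were 0.91, -0.81, 0.69 and 0.07, so of these only HDAC11 was lower in both media. The S phase list had a median knockdown ratio of -0.08 in DMEM and -0.27 in SCM.

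**Figure D4:**
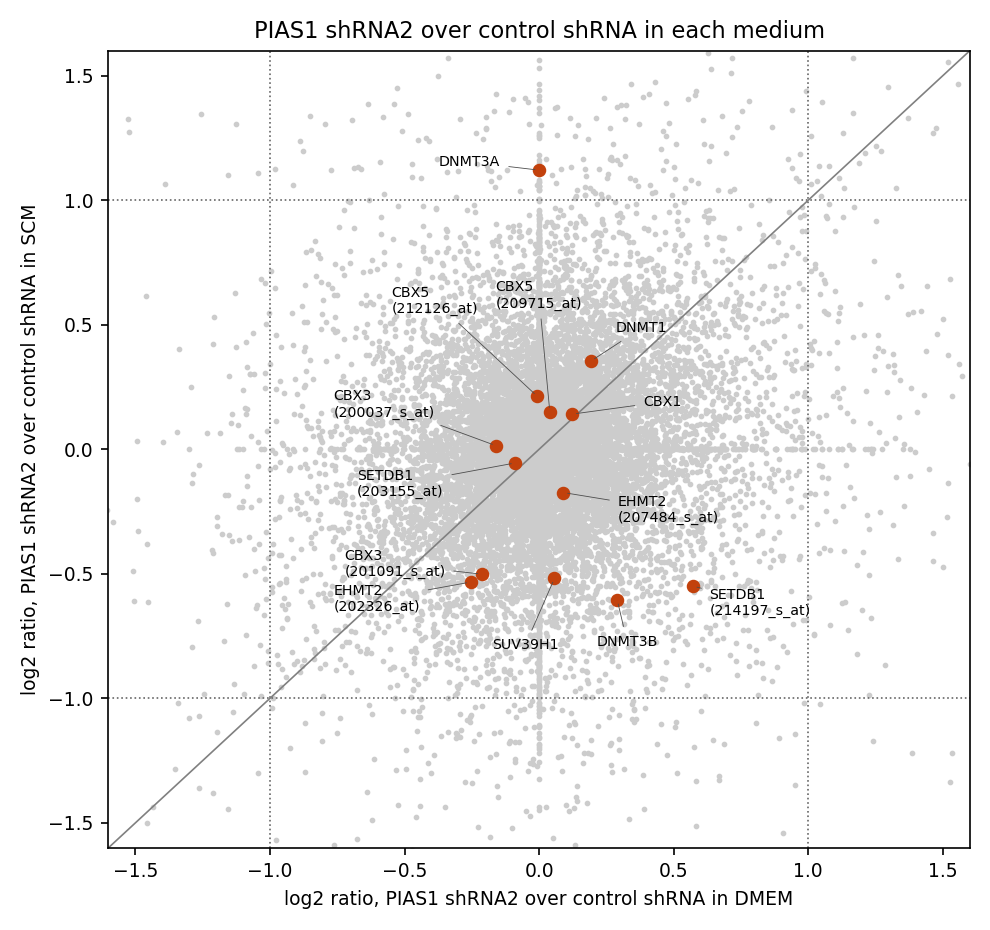
Knockdown ratio on the log2 scale, PIAS1 shRNA2 over control shRNA, with DMEM on the x axis and SCM on the y axis, for the member probe sets (orange) and all probe sets of one gene (grey; points beyond the axes are not drawn), with dotted lines at 2-fold. The members other than DNMT3A lie between -0.25 and 0.57 in DMEM and between -0.60 and 0.35 in SCM, and DNMT3A stands at its bound of 1.12 in SCM.

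The genes whose centred log2 signals followed a member most closely over the 4 conditions were taken from the genes above the floor on all arrays, by Euclidean distance. For DNMT1 they were NIP7, SRSF1 and CCDC86, at distances of 0.0741, 0.124 and 0.150 among 7661 genes. NIP7 had signals of 1835 and 2119 in DMEM and 400 and 541 in SCM, so that it had the same order of conditions as DNMT1. For CBX3 200037_s_at they were MRPS28, BLCAP and ATG3 (0.0307, 0.0309 and 0.0352). For DNMT3A, which was itself raised to the floor in 3 conditions, they were ACAD10, GRM4 and LCP1 (0.170, 0.223 and 0.224). With 4 points, such likeness is a description only.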

How the data were processed

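RNA of MDA-MB231 cells in DMEM or SCM, carrying PIAS1 shRNA2 or the control shRNA, was hybridised to 1 array per condition. The values deposited by the authors are linear signal intensities from MAS5, as named in the submitters' processing notes. Version, settings and detection calls of MAS5 could not be taken from the labels and are not given in the sources used. The mean signal without the lowest and highest 2% was 2501 on each array. Gene names came from the table of the platform: 19070 probe sets have exactly one gene, 1043 several and 2164 are unnamed here. All 13 member probe sets matched RefSeq by Entrez identifier and symbol.

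The floor of 186 was the highest over arrays of the 75th percentile of 82 probe sets for 54 genes that other tissues express. limma 3.58.1 in R 4.3.3 fitted shRNA and medium with a variance trend to log2 signals of 13574 probe sets above the floor on at least 2 arrays, adjusted by Benjamini-Hochberg. Python 3.11.15, NumPy 2.4.6, pandas 2.3.3 and matplotlib 3.10.9 served for the rest, and the steps were tested on simulated data. The members and the lists were chosen with earlier results of these data known. Genes named are every member, PIAS1, up to 4 genes of each list that were at least 2-fold apart in a comparison, by size, and the 3 nearest genes of DNMT1, DNMT3A and CBX3. TRIM28, RRM2 and the markers were named outside that rule, after their values were seen. Alternatives were other floors, scalings and fold thresholds, means over probe sets, and, for limma, no trend, no filter, 1 probe set a gene and leaving out each array.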

Additional observations from a re-analysis of the deposited data

Results flagged for a closer look

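The knockdown ratios of 2 member probe sets pointed in opposite directions in the 2 media, each by at least 0.25 on the log2 scale. For DNMT3B the log2 ratio, PIAS1 shRNA2 to control shRNA, was 0.29 in DMEM and -0.60 in SCM, and the ratio in SCM was lower than that in DMEM by a log2 difference of -0.90. For SETDB1 214197_s_at, the dimmer of its probe sets, the ratios were 0.57 and -0.55 and the difference was -1.12, while SETDB1 203155_at had ratios of -0.09 and -0.05. With 1 array per condition the difference was not tested. Of all 19070 probe sets of one gene 1057 (5.54%) had such opposite ratios, as did 2 of the 13 of the members (15.4%). DNMT3B lay between 319 and 781 and SETDB1 214197_s_at between 379 and 777, so both were dim on the scale of these arrays. With the floor at the 95th percentile for genes of other tissues (509), the log2 ratio of DNMT3B in SCM became 0 and that of SETDB1 214197_s_at in DMEM 0.14, and with it at the array median both were 0, so neither probe set still met the limit of 0.25 in both media.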

How the results depend on the processing

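The log2 ratios of the members moved by less than 0.25 under both other scalings in all 52 cases, and no ratio of at least 2-fold changed sign under any alternative. Over all probe sets of one gene, counts at least 2-fold higher and lower for the knockdown were 2102 and 1532 in DMEM and 1743 and 1783 in SCM with no floor, 52 and 38, and 110 and 88, with the floor at the 95th percentile for genes of other tissues, 46 and 35, and 98 and 80, with it at the highest array median, and 906 and 665, and 1031 and 1051, at 1.5-fold. For the medium they were 3707 and 2608 in control shRNA and 3238 and 2885 in PIAS1 shRNA2 cells with no floor, and 3112 and 2939, and 3020 and 3076, at 1.5-fold, while those higher with the floor at the array median were 998 and 974. Among the members, DNMT3A was no longer higher in SCM by knockdown or by medium (0), and DNMT3B no longer lower in SCM in PIAS1 shRNA2 cells (3 in place of 4), with either higher floor, 6 were lower in SCM in control shRNA cells and 1 lower by knockdown in SCM at 1.5-fold, and those higher in SCM in control shRNA cells were 2 with no floor and 0 with either higher floor or either other scaling.

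limma called 132 probe sets for the knockdown and 6282 for the medium. For the knockdown it called 57 after quantile normalization, 0 with no variance trend (1227 at an unadjusted p below 0.05) and 0 without the filter (1087). For the medium it called 5018 with no trend and 0 without the filter (5026). Leaving out each array in turn together with the other term, which also leaves an arm of 1 array assumed to vary like the other arm, gave 0 for both effects (71 to 167 and 4282 to 5192 at an unadjusted p below 0.05). The cause was not tested. Without the filter the 7 member calls for the medium were lost, and with no trend that of DNMT3B was. Over means of probe sets, CBX5 had medium ratios of -1.28 and -1.11 and CBX3 of -0.38 in control shRNA cells. The additive fit already takes the medium effect within each line and the knockdown effect within each medium. The labels number no replicates, so no other pairing could be fitted. Low signals limit DNMT3A, DNMT3B, EHMT2 207484_s_at and SETDB1 214197_s_at.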
